A study of Mus musculus with 6 samples.

Results

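Genes of estrogen synthesis and inactivation were examined in ectopic lesions from mice with endometriosis. The list was set by gene name and not by a cut on any measured value, but with earlier results of these data known. It held 10 genes: the cholesterol carrier Star, the synthesis enzymes Cyp11a1, Hsd3b1, Cyp19a1 and Hsd17b1, the estrogen-inactivating enzymes Hsd17b2 and Sult1e1, the sulfatase Sts, and the nuclear receptors Nr5a1 and Nr5a2. Of these, 9 were matched to a gene among the 56884 gene identifiers counted, and Sts was not analysed here.

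Endometriosis is an estrogen-dependent disease in which tissue like the uterine lining grows outside the uterus. Estrogen can reach such tissue through the blood, or it can be made there from cholesterol: STAR brings cholesterol into mitochondria, CYP11A1 cleaves its side chain, HSD3B enzymes convert pregnenolone to progesterone, and aromatase, encoded by Cyp19a1, turns androgens into estrogens. HSD17B1 then reduces weak estrone to potent estradiol, HSD17B2 does the reverse, and the sulfotransferase SULT1E1 attaches sulfate to estrogens and so inactivates them.

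The donors of the ectopic tissue were Dnmt3a f/f females (control, WT) or Dnmt3a f/f:PR-Cre/+ females (Dnmt3a KO), in which Cre recombinase is active in cells with the progesterone receptor. Donors and recipients were 8 weeks old, all donors had received estradiol, and all recipients were wild-type C57BL/6J females that carried an estradiol pellet, so both groups of lesions grew under added estrogen. Each group had 3 lesions and each lesion gave 1 library of messenger RNA. The deletion can occur only in donor cells that express the receptor, while blood vessels, immune cells and adherent tissue of the host keep Dnmt3a. The labels give 4 weeks of growth after fragments were injected into the peritoneal cavity, whereas the methods of the study give an earlier day and a sutured fragment.

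Library totals ran from 45370342 to 57239184 counts. Levels are given in CPM, counts for every 1000000 counts of the effective library size, and always in the order of replicates 1, 2 and 3 of a group. The targeted gene, Dnmt3a, was at 52.7, 43.9 and 51.7 CPM in the WT lesions against 30.3, 33.5 and 36.2 CPM in the KO lesions, so the groups did not overlap (log2 fold change -0.57, SE 0.14, edgeR adjusted p = 0.321). Epithelial markers of the endometrium were present in every lesion, with 9 or 10 of 10 genes at 10 counts or more, and all 8 stromal markers were. Several libraries also held transcripts of other tissues. KO replicate 2 stood apart by genes of the oviduct, oocyte and ovarian follicle, given with the members below. WT replicates 1 and 3 held skeletal muscle genes (25284 and 26978 CPM summed over 6 genes, at most 14.0 CPM in the other lesions), and WT replicate 3 held genes of the exocrine pancreas (4020 CPM over 6 genes, at most 0.358 CPM elsewhere). WT replicate 2 was rich in neutrophil genes (9691 CPM over 5 genes, against 29.1 to 470 CPM).

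In these lesions 8 of the 9 members were detected, meaning at least 10 counts in at least 1 library, and 3 of them, Star, Hsd17b2 and Nr5a2, were detected in all 6. Without KO replicate 2 the number was 6, of which Hsd17b1 and Cyp11a1 reached at most 11 and 16 counts. A count of 0 allows up to 3 counts, which corresponded to 0.0526 to 0.0675 CPM over the 6 libraries, and these limits cover counting error only. Of the counts from 1 to 20 in a library, 89.2% to 90.6% were even. If fragments were counted in pairs, these limits would be too low, and 10 counts would stand for fewer fragments. The plot of the 9 members by lesion shows 2 kinds of pattern. Star, Hsd17b2 and Nr5a2 were at 1.23 CPM or more in every lesion, and the other 6 genes reached at most 0.421 CPM outside KO replicate 2. Among those 6, Cyp11a1 had more than 3 counts in every lesion.

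**Figure D1:**
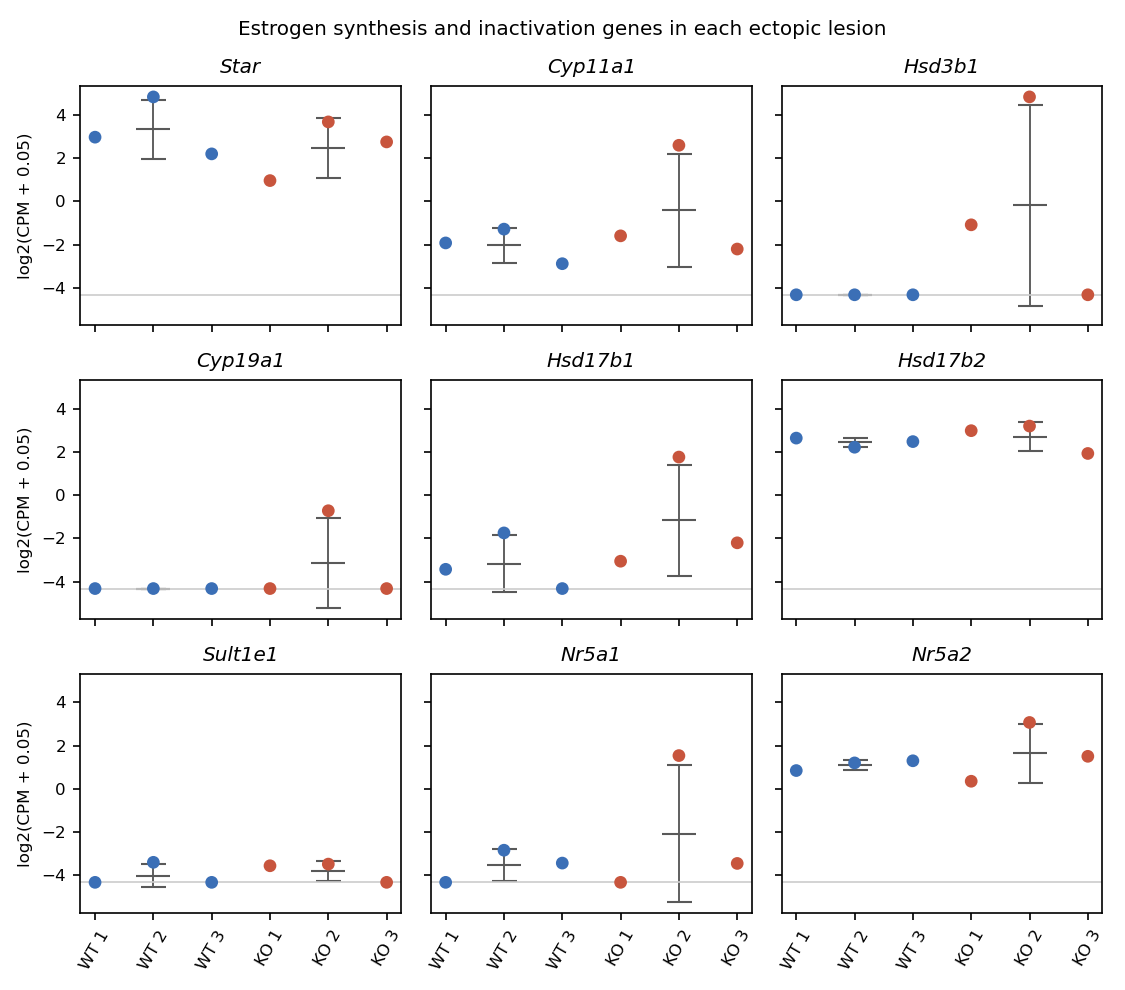
Level of each member as log2(CPM + 0.05) on the vertical axis in the 3 WT (blue) and 3 KO (red) lesions, with the group mean and SD of the log2 values as bars and a gray line at 0 CPM. Cyp11a1, Hsd3b1, Cyp19a1, Hsd17b1 and Nr5a1 peak in KO replicate 2, while Hsd17b2 stays between 3.75 and 9.10 CPM in all 6 lesions.

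The promoters of the 3 synthesis genes with a RefSeq promoter sequence are shown first, because most of their reads came from 1 lesion and because DNMT3A methylates DNA at CpG dinucleotides. Each line gives, 5′ to 3′ on the gene's strand, the 250 bases before a start site on build GRCm38.p6. The regions are chr9:54193744-54193993 (minus strand) for the Cyp19a1 start closest to its coding sequence, chr3:98859795-98860044 (minus strand) for Hsd3b1 and chr9:58014702-58014951 (plus strand) for the Cyp11a1 start closest to its coding sequence. Capitals mark the nuclear receptor motif AGGTCA and the TATA box motif TATAAA, on either strand.
Cyp19a1: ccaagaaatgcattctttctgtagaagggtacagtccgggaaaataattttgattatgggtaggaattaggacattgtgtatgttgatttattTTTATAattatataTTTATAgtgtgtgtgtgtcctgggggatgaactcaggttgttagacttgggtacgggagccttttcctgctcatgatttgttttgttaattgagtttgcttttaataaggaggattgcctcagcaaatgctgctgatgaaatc
Hsd3b1: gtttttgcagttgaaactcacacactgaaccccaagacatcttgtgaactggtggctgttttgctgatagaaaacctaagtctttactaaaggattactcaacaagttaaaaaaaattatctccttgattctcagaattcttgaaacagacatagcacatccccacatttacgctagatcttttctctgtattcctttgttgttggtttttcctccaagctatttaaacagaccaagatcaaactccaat
Cyp11a1: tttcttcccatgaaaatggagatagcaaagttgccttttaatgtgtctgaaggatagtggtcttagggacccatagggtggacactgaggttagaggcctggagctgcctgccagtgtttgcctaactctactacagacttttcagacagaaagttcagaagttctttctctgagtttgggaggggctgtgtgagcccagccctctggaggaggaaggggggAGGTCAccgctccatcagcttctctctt

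Of CpG dinucleotides, the Cyp19a1 window shown held 2 and the Hsd3b1 and Cyp11a1 windows held 1 each, compared with a median of 6 (quartiles 2 and 16) over 32851 RefSeq promoter windows of the same length. The windows of starts farther from the coding sequence, which are not printed, held 3 and 6 for Cyp19a1 and 4 for Cyp11a1. The Cyp11a1 window shown had AGGTCA on the gene strand from 28 to 23 bases before the start, and the farthest Cyp19a1 window had it on the opposite strand from 81 to 76 bases before. Over all windows, 14% held AGGTCA on either strand. NR5A receptors bind AGGTCA with an A before it, AAGGTCA, which contains the shorter motif and was found in 4.08% of all windows. That longer motif did not appear in the windows of Cyp19a1, Hsd3b1 and Cyp11a1 and did appear in the Sult1e1 window (chr5:87591612-87591861, opposite strand, from 113 to 107 bases before the start). The Cyp19a1 window shown held TATAAA at 2 places on the opposite strand, the middle Cyp19a1 window (chr9:54228915-54229164, minus strand) held it on the gene strand from 29 to 24 bases before the start and also on the opposite strand, overlapping, and 12.4% of all windows held it. A match is a description of the letters, and a missing match says only that these letters are not in this window. No methylation was measured in these libraries.

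Star (ENSMUSG00000031574.9, chromosome 8 of GRCm38 from 25806555 to 25815982), which controls the entry of cholesterol into steroid synthesis, was detected in every lesion. Its level was 7.77, 28.4 and 4.53 CPM in the WT lesions against 1.89, 12.7 and 6.67 CPM in the KO lesions. WT replicate 2 was highest and KO replicate 1 lowest, a 15.0-fold range, and the groups overlapped. The means were 13.6 ± 12.9 CPM in WT and 7.09 ± 5.42 CPM in KO (SD, n = 3 each, exact two-sided permutation p = 0.6, where 0.1 is the smallest this design allows). In the model across all genes its log2 fold change was -0.94 (SE 0.90, 95% interval -3.15 to 1.28, edgeR quasi-likelihood test, Benjamini-Hochberg adjusted p = 0.622). Without WT replicate 2 it was 0.21, so the direction rested on that lesion, and without KO replicate 2 it was -1.66. The 5 macrophage markers, summed, were also highest in WT replicate 2, at 1381 CPM, against 513 and 532 CPM in the other WT lesions and 346, 285 and 720 CPM for the KO group. The second-highest Star level, in KO replicate 2, stood beside the lowest macrophage sum. The 4 mesothelium markers, summed, had 238, 197 and 46.3 CPM in the WT lesions against 39.4, 270 and 135 CPM in the KO lesions, with the same 3 lesions lowest as for Star, KO replicate 1, WT replicate 3 and KO replicate 3. The part of either cell type in the level of Star was not tested. In RNA from whole lesions, fewer cells of a type and less RNA per cell cannot be told apart.

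Cyp11a1 (ENSMUSG00000032323.14, chromosome 9 of GRCm38 from 58006411 to 58027023), which encodes the side-chain cleavage enzyme that starts all steroid synthesis, had 10, 16 and 4 counts in the WT lesions against 16, 301 and 8 counts in the KO lesions. Those are 0.213, 0.360 and 0.0854 CPM in the WT lesions against 0.281, 5.98 and 0.167 CPM in the KO lesions. KO replicate 2 was 16.6-fold above the next lesion, and the other 5 lesions overlapped. The mean was 0.220 ± 0.137 CPM in WT and 2.14 ± 3.32 CPM in KO (SD, n = 3 each, exact permutation p = 0.5). The log2 fold change of 3.27 (SE 1.51, 95% interval -0.42 to 6.97, edgeR adjusted p = 0.362) became 0.039 without KO replicate 2. Cyp11a1 overlaps Gm17322 on the same strand, so its reads can be shared with that gene.

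Hsd3b1 (ENSMUSG00000027871.17, chromosome 3 of GRCm38 from 98852194 to 98859794) encodes the dehydrogenase that makes progesterone and androstenedione. It had 0 counts in all 3 WT lesions and 24, 1430 and 0 counts in KO replicates 1, 2 and 3. KO replicate 2, at 28.4 CPM, was 67.5-fold above KO replicate 1, at 0.421 CPM. These were the only lesions with any count, so KO replicate 3 lay level with WT (exact permutation p = 0.4). The other genes of this family that were examined were at or near 0. Hsd3b3 had 0 CPM in every lesion, and Hsd3b2 and Hsd3b6 reached at most 0.0596 and 0.0351 CPM. Near-identical copies can share reads, so the counts within the family are uncertain.

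Aromatase, encoded by Cyp19a1 (ENSMUSG00000032274.10, chromosome 9 of GRCm38 from 54165937 to 54268110), was counted in 1 lesion. It had 28 counts in KO replicate 2, or 0.556 CPM, and 0 counts in each of the other 5. That lesion was at least 8.24-fold higher than the limit set by 3 counts in any other library. The bound would be lower if fragments were counted in pairs. At this depth Cyp19a1 was not detectable in the 3 WT lesions or in KO replicates 1 and 3 (exact permutation p = 1 for KO against WT).

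Hsd17b1 (ENSMUSG00000019301.6, chromosome 11 of GRCm38 from 101078411 to 101080527), whose enzyme makes estradiol from estrone, had 2, 11 and 0 counts in the WT lesions against 4, 168 and 8 counts in the KO lesions. The value in KO replicate 2 was 3.34 CPM, or 13.5-fold above WT replicate 2, at 0.248 CPM. The other 2 KO lesions, at 0.0702 and 0.167 CPM, lay within the WT range of 0 to 0.248 CPM (exact permutation p = 0.5).

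Estradiol inactivation was represented by Hsd17b2 (ENSMUSG00000031844.9, chromosome 8 of GRCm38 from 117701904 to 117759027), which encodes the enzyme that oxidizes estradiol back to estrone and is known as a progesterone-induced gene of human endometrial epithelium. It was the most even member, at 6.17, 4.59 and 5.51 CPM in the WT lesions against 7.84, 9.10 and 3.75 CPM in the KO lesions. KO replicates 1 and 2 lay above all WT lesions and KO replicate 3 below all of them, with a 2.43-fold range over the 6 lesions. The mean was 5.42 ± 0.793 CPM in WT and 6.90 ± 2.80 CPM in KO (SD, n = 3 each, exact permutation p = 0.5). Its log2 fold change was 0.35 (SE 0.36, 95% interval -0.54 to 1.23, edgeR adjusted p = 0.650), and leaving out single lesions gave 0.10 to 0.64. Hsd17b2 overlaps Gm45776 on the same strand and Gm31774 on the opposite strand.

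Levels of Hsd17b2 were set beside those of 5 general epithelial genes, Epcam, Cdh1, Krt8, Krt18 and Krt19, a subset of the epithelial list chosen after its values were seen. Their sum was 1558, 1516 and 2284 CPM in the WT lesions against 2790, 2617 and 1425 CPM in the KO lesions, so the same 2 KO lesions were highest and the same lesion was lowest as for Hsd17b2. Over all 10 genes of the epithelial list, KO replicates 1 and 2 were also highest. The lowest sum of that full list was instead in WT replicate 2, at 11540 CPM, with KO replicate 3 at 17396 CPM. Per 1000 CPM of the 5 genes, Hsd17b2 had 3.96, 3.03 and 2.41 CPM in the WT lesions against 2.81, 3.48 and 2.63 CPM in the KO lesions. The means of this ratio were 3.13 ± 0.778 in WT and 2.97 ± 0.445 in KO (SD, n = 3 each), and the groups overlapped. Whether the amount of epithelium accounts for the level of Hsd17b2 was not tested.

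**Figure D2:**
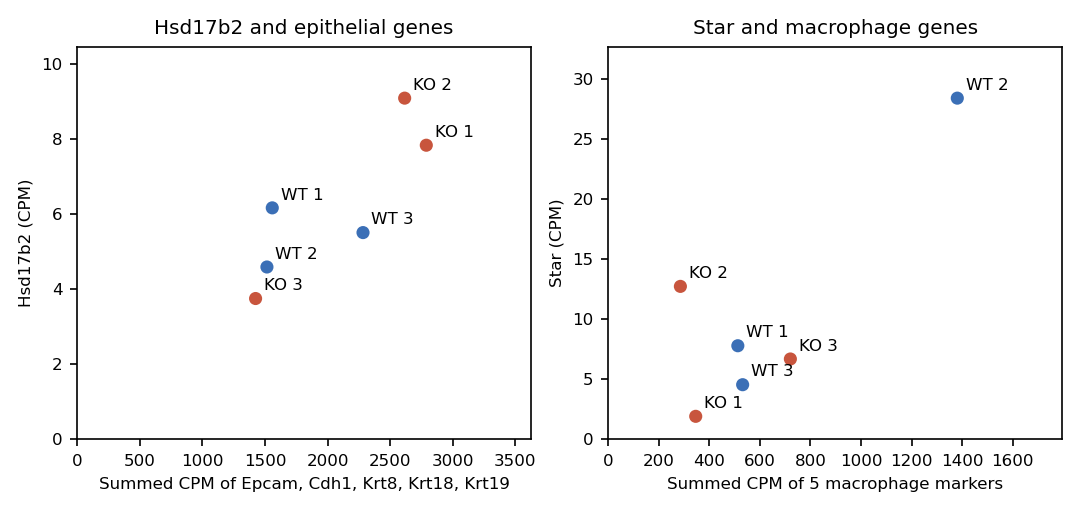
Left, Hsd17b2 (CPM) against the summed CPM of 5 epithelial genes, and right, Star (CPM) against the summed CPM of 5 macrophage markers, with 1 point for each WT (blue) or KO (red) lesion. KO replicates 1 and 2 are highest on both axes on the left, and WT replicate 2, at 28.4 CPM of Star, is highest on both axes on the right.

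Sult1e1 (ENSMUSG00000029272.9, chromosome 5 of GRCm38 from 87575969 to 87591594), the estrogen sulfotransferase, did not reach 10 counts in any lesion. It had 0, 2 and 0 counts in the WT lesions against 2, 2 and 0 counts in the KO lesions, all below the 3 counts that a count of 0 allows. No difference was detectable at this depth.

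The nuclear receptors that act on steroid synthesis genes differed in how widely they were detected. Nr5a1 (ENSMUSG00000026751.15, chromosome 2 of GRCm38 from 38692656 to 38714542), which encodes steroidogenic factor 1 of the gonads and adrenal cortex, had 0, 4 and 2 counts in the WT lesions against 0, 144 and 2 counts in the KO lesions. KO replicate 2 held 2.86 CPM, 31.8-fold above WT replicate 2 at 0.0900 CPM, a ratio that rests on 4 counts (exact permutation p = 0.9). The antisense gene Nr5a1os overlaps it on the opposite strand. Nr5a2 (ENSMUSG00000026398.15, chromosome 1 of GRCm38 from 136842571 to 136960448), which encodes the related receptor LRH-1, was detected in every lesion. Its level was 1.75, 2.25 and 2.41 CPM in the WT lesions against 1.23, 8.36 and 2.79 CPM in the KO lesions. KO replicate 2 was again highest, 3.00-fold above KO replicate 3, and KO replicate 1 was the lowest of all lesions. The means were 2.14 ± 0.345 CPM in WT and 4.13 ± 3.75 CPM in KO (SD, n = 3 each, exact permutation p = 0.6). The log2 fold change of 0.95 (SE 0.69, 95% interval -0.74 to 2.64, edgeR adjusted p = 0.515) turned to -0.087 without KO replicate 2.

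Across the 9 members, the share of the summed CPM of the 6 lesions that fell in KO replicate 2 was 100% for Cyp19a1, 98.5% for Hsd3b1, 94.3% for Nr5a1, 86.4% for Hsd17b1 and 84.4% for Cyp11a1. It was 44.5% for Nr5a2, 24.6% for Hsd17b2 and 20.5% for Star. The median over all tested genes was 16.4%. Of the 9 members, 7 had their highest value in KO replicate 2, as did 3 of the 4 members that passed the filter on low counts and 19.7% of all genes that passed it. Of 15014 genes with at least 1 CPM in KO replicate 2, 314 (2.09%) were at least 8-fold above every other lesion there, and these included 4 of the 7 members at 1 CPM or more, Cyp11a1, Hsd3b1, Hsd17b1 and Nr5a1. WT replicate 2 had 236 such genes (1.57%), WT replicate 3 had 60, and the other lesions had 8 or fewer, with no member among them.

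Markers of the reproductive tract beyond the uterus moved with these members. Of the 6 granulosa and theca genes, 5 were highest in KO replicate 2, and all 6 reached 10 counts there against 2 in each other lesion. Their sum was 4.12, 5.31 and 8.91 CPM in the WT lesions against 21.3, 39.5 and 9.0 CPM in the KO lesions. Amh, the anti-Müllerian hormone of growing follicles, had 1.47 CPM in KO replicate 2 and 0 in the others, as did the follicle-stimulating hormone receptor Fshr at 0.238 CPM. Inha, the inhibin alpha subunit, had 1.71, 1.98 and 0.427 CPM in the WT lesions against 0.667, 22.1 and 0.417 CPM in the KO lesions. Cyp17a1, the enzyme of theca cells that makes androgens, reached 0.596 CPM in KO replicate 2 and at most 0.0900 CPM elsewhere. The exception was Foxl2, highest in KO replicate 1.

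Further lists were chosen after the values were seen, so that their sums peaked in KO replicate 2 was not an independent check. For 10 oocyte genes the sum was 1.02, 4.01 and 1.20 CPM in the WT lesions against 1.14, 27.4 and 1.67 CPM in the KO lesions, and 9 of the 10 were highest in KO replicate 2. The zona pellucida gene Zp2 had 4.81 CPM there and at most 0.128 CPM elsewhere, and the oocyte gene Nlrp5 had 3.69 CPM there and 0 in the others. All 8 genes of the oviduct and motile cilia were highest in KO replicate 2, with a sum of 4387 CPM against 4.05 to 63.2 CPM. Most of it was Ovgp1, the oviductal glycoprotein, at 39.3, 2.61 and 35.6 CPM in the WT lesions against 50.5, 4104 and 15.6 CPM in the KO lesions. The 5 adrenal cortex genes did not follow this pattern, with 35.6 to 93.4 CPM over the lesions, 53.5 CPM in KO replicate 2 and Cyp11b2 at 0 in all 6. Most of that sum was Cyp21a1, at 32.6 to 90.0 CPM over the lesions and 51.4 CPM in KO replicate 2. Cyp21a1 overlaps Tnxa on the opposite strand, so the sum mainly describes reads at that position. The part of ovarian or oviductal tissue in the levels of the members was not tested.

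**Figure D3:**
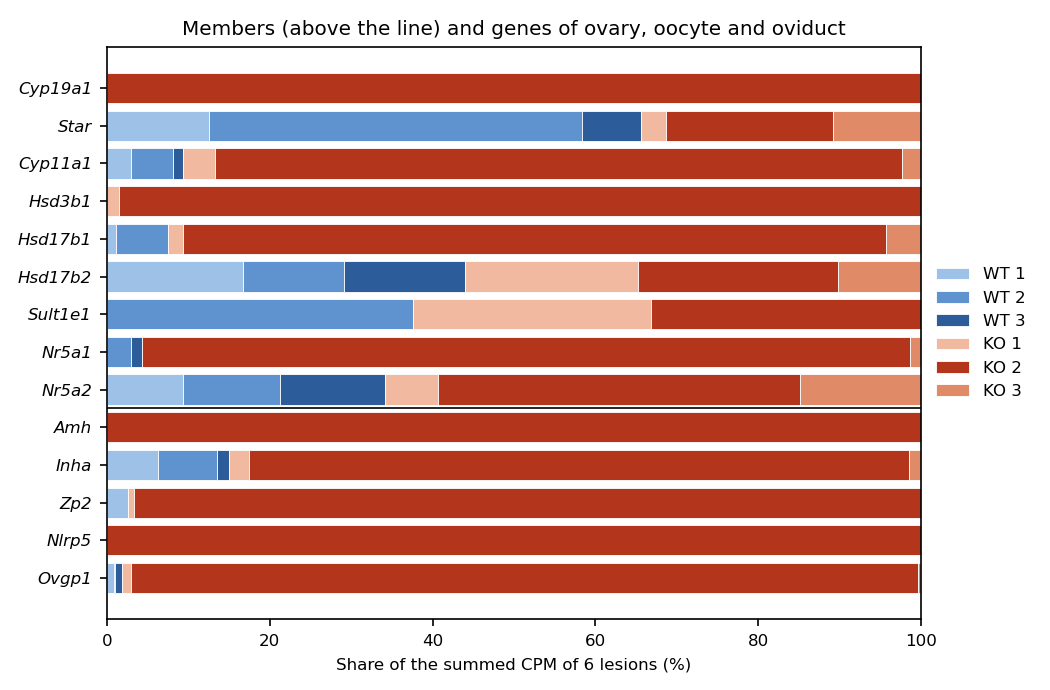
Share of the CPM summed over the 6 lesions (percent, horizontal axis) that came from each lesion, for the 9 members above the line and 5 genes of the ovarian follicle (Amh, Inha), oocyte (Zp2, Nlrp5) and oviduct (Ovgp1) below it. KO replicate 2, in dark red, takes 84.4% to 100% of Cyp19a1, Cyp11a1, Hsd3b1, Hsd17b1 and Nr5a1, and 81.0% to 100% of the 5 marker genes. Zp2, Nlrp5 and Ovgp1 are from lists chosen after the values were seen.

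Without KO replicate 2, the mean of KO replicates 1 and 3 divided by the WT mean was 1.02 for Cyp11a1, 1.07 for Hsd17b2, 0.940 for Nr5a2 and 0.316 for Star. That of Cyp11a1 rests on 4 to 16 counts in each of these 5 lesions. No ratio is given for Cyp19a1 or Hsd3b1, with 0 counts in WT, nor for Hsd17b1, Sult1e1 and Nr5a1, with at most 11, 2 and 4 counts in these lesions. Among Star and the 4 synthesis enzymes, the values of KO replicates 1 and 3 lay within the WT range except in KO replicate 1, where Hsd3b1 had its 24 counts and Star was below all WT lesions.

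Levels of different genes were compared per kilobase of exon. Averaged over the 6 lesions, Hsd17b2 was highest at 3.20 ± 1.04 CPM per kilobase (SD, n = 6 lesions of both genotypes), followed by Hsd3b1 at 2.59 ± 6.23 and Star at 2.51 ± 2.32. Then came Nr5a2 at 0.531 ± 0.444, Hsd17b1 at 0.481 ± 0.988, Cyp11a1 at 0.246 ± 0.490 and Nr5a1 at 0.119 ± 0.272. Cyp19a1 at 0.0205 ± 0.0502 and Sult1e1 at 0.0161 ± 0.0178 were lowest. No neighbors in this order differed by more than the larger of their SDs. Within the WT lesions Star had the highest mean, 3.30 ± 3.15, with Hsd17b2 at 2.82 ± 0.412. Within the KO lesions Hsd3b1 had the highest mean, 5.18 ± 8.78, with Hsd17b2 at 3.58 ± 1.45 (SD, n = 3 each). Without KO replicate 2, Hsd17b2 at 2.90 ± 0.813, Star at 2.39 ± 2.58 and Nr5a2 at 0.354 ± 0.103 CPM per kilobase stood first, and Hsd3b1 dropped to 0.0454 ± 0.101. The step from Nr5a2 to the next gene, Hsd17b1 at 0.0787 ± 0.0749, then exceeded both SDs.

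In the comparison of Dnmt3a KO with WT lesions, 4 of the 9 members passed the filter on low counts, Star, Cyp11a1, Hsd17b2 and Nr5a2, and 0 of them had an adjusted p under 0.05 in edgeR's quasi-likelihood test. Over all 18177 genes tested this share was 0.0055%, which is 1 gene, Kcnj2. None of the 4 had an unadjusted p under 0.05 either (lowest 0.0733, for Cyp11a1), and neither DESeq2 nor limma voom called a member. With the threshold of the study, an unadjusted p under 0.05 and a log2 fold change past 1 in either direction, 0 of 4 members and 8.96% of all tested genes passed. For none of the 9 members did all KO values lie above or below all WT values. Among all tested genes this held for 10.7% with KO above WT and for 8.74% with KO below WT. The 95% intervals of the 4 tested members, given above, each hold a 2-fold difference in at least 1 direction, so the test does not show that the groups were alike.

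Genes with the profile closest to a member over the 6 lesions were sought among 15046 genes, by Euclidean distance of log2 CPM centered on each gene's mean, for the 3 tested members with the highest mean. Closest to Star were Gstm1, Smpdl3b and Stk26, at distances of 0.79, 0.82 and 0.92 against a median of 3.06 over all candidates. Proser3, Fam198a and Ccdc57 were closest to Hsd17b2, at 0.17, 0.23 and 0.27 (median 1.25). For Nr5a2 they were 4430402I18Rik, Tmem218 and Tspan15, at 0.38, 0.55 and 0.63 (median 2.22). These distances describe 6 libraries that share their differences in tissue content.

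Beyond the members, 61 other genes of steroid supply, conversion and control were listed by role, of which 60 were matched and 47 passed the filter. In edgeR's quasi-likelihood test 0 of the 47 had an adjusted p under 0.05 (lowest 0.321). At an unadjusted p under 0.05, 7 were higher and 2 lower in KO lesions, where 6.55% of all tested genes were higher and 8.16% lower. With the threshold of the study on both p and fold change, 3 were higher and 1 lower, where the background was 3.1% and 5.85%. The median log2 fold change of the 47 genes was 0.013, beside 0.014 for all tested genes. Without KO replicate 2 the counts past that threshold were again 3 and 1, with Cyp11b1 in place of Foxl2, and the background was 1.48% and 3.48%. Foxl2 then had a log2 fold change of 1.64 (SE 0.69), against 1.65 (SE 0.58) with all lesions. The higher count was 1 without WT replicate 2 (background 2.1%) or KO replicate 1 (2.25%) and 5 without KO replicate 3 (5.36%). The lower count was 3 without WT replicate 1 (5.99%) or WT replicate 3 (6.24%) and 5 without KO replicate 3 (8.66%).

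Among these genes, Srd5a2, a reductase that turns testosterone into dihydrotestosterone, had 0.171, 0.0900 and 0.128 CPM in the WT lesions against 1.05, 2.22 and 0.333 CPM in the KO lesions (log2 fold change 3.19, SE 0.77, edgeR adjusted p = 0.321). Those levels rest on 8, 4 and 6 counts in the WT lesions and 60, 112 and 16 counts in the KO lesions. KO replicate 2 held 55.6% of the summed CPM of Srd5a2. A filter of 10 counts in every library left no fit for this gene. Hsd11b2, which inactivates corticosterone, had 38.6, 31.3 and 87.0 CPM in the WT lesions against 248, 124 and 96.3 CPM in the KO lesions (log2 fold change 1.58, SE 0.53, edgeR adjusted p = 0.328). Foxl2, a transcription factor of granulosa cells and of the uterus, had 2.37, 3.20 and 8.48 CPM in the WT lesions against 20.6, 14.8 and 8.50 CPM in the KO lesions (1.65, SE 0.58, adjusted p = 0.328). The groups did not overlap for these 3 genes, with KO higher, although KO replicate 3 exceeded the highest WT lesion only slightly for Foxl2. The gene past the threshold on the lower side was Nr4a1, an immediate early nuclear receptor that acts on steroidogenic promoters, at 43.9, 100 and 29.6 CPM in the WT lesions against 4.74, 6.20 and 10.2 CPM in the KO lesions (log2 fold change -3.04, SE 0.56, edgeR adjusted p = 0.321). With each lesion left out, the log2 fold change ran from 2.40 to 3.63 for Srd5a2, lowest without KO replicate 2. It ran from 1.08 to 2.13 for Hsd11b2, from 1.32 to 2.37 for Foxl2 and from -3.40 to -2.38 for Nr4a1. With DESeq2, 4 of the 47 had an adjusted p under 0.05, Nr4a1, Hsd17b7, Papss1 and Srd5a2, where 6.05% of all tested genes did.

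All 11 genes of cholesterol supply passed the filter. Npc2, which moves cholesterol out of lysosomes, ran from 198 to 435 CPM, and the lipase gene Lipe from 63.6 to 391 CPM, with its highest value in KO replicate 3. That lesion also had the highest sum of the 6 adipocyte markers, 7370 CPM against 944 to 4160 CPM, and their part was not tested. The electron donors Por (114 to 231 CPM) and Cyb5r3 (198 to 335 CPM) overlapped between the groups. Among other cytochrome P450 enzymes, Cyp21a1 had 32.6 to 90.0 CPM and overlaps Tnxa on the opposite strand, and Cyp11b1 reached 1.47 CPM at most.

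Hsd17b11 had 400, 170 and 319 CPM in the WT lesions against 800, 703 and 333 CPM in the KO lesions (log2 fold change 1.05, SE 0.44, edgeR adjusted p = 0.344). The sum of the 10 epithelial markers of the endometrium, most of it Ltf, was likewise highest in KO replicates 1 and 2, at 20938, 11540 and 18150 CPM in the WT lesions against 37106, 28628 and 17396 CPM in the KO lesions, and its part was not tested. Hsd17b4, a peroxisomal enzyme that also oxidizes estradiol, had 97.2 to 173 CPM. Papss1, which makes the sulfate donor used by sulfotransferases such as SULT1E1, had 54.3, 48.7 and 54.5 CPM in the WT lesions against 77.4, 80.6 and 75.3 CPM in the KO lesions, without overlap (log2 fold change 0.57, SE 0.11, edgeR adjusted p = 0.321). The reductase genes Srd5a1 (6.36 to 51.9 CPM) and Srd5a3 (24.1 to 31.4 CPM) overlapped between the groups, as did Hsd11b1, which regenerates corticosterone (5.75 to 39.2 CPM). Of the abundant regulators, Nr2f2, which encodes COUP-TFII, had 59.9 to 75.1 CPM and a log2 fold change of -0.0064 (SE 0.13), and Creb1 had 46.1 to 60.3 CPM and -0.11 (SE 0.13).

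**Figure D4:**
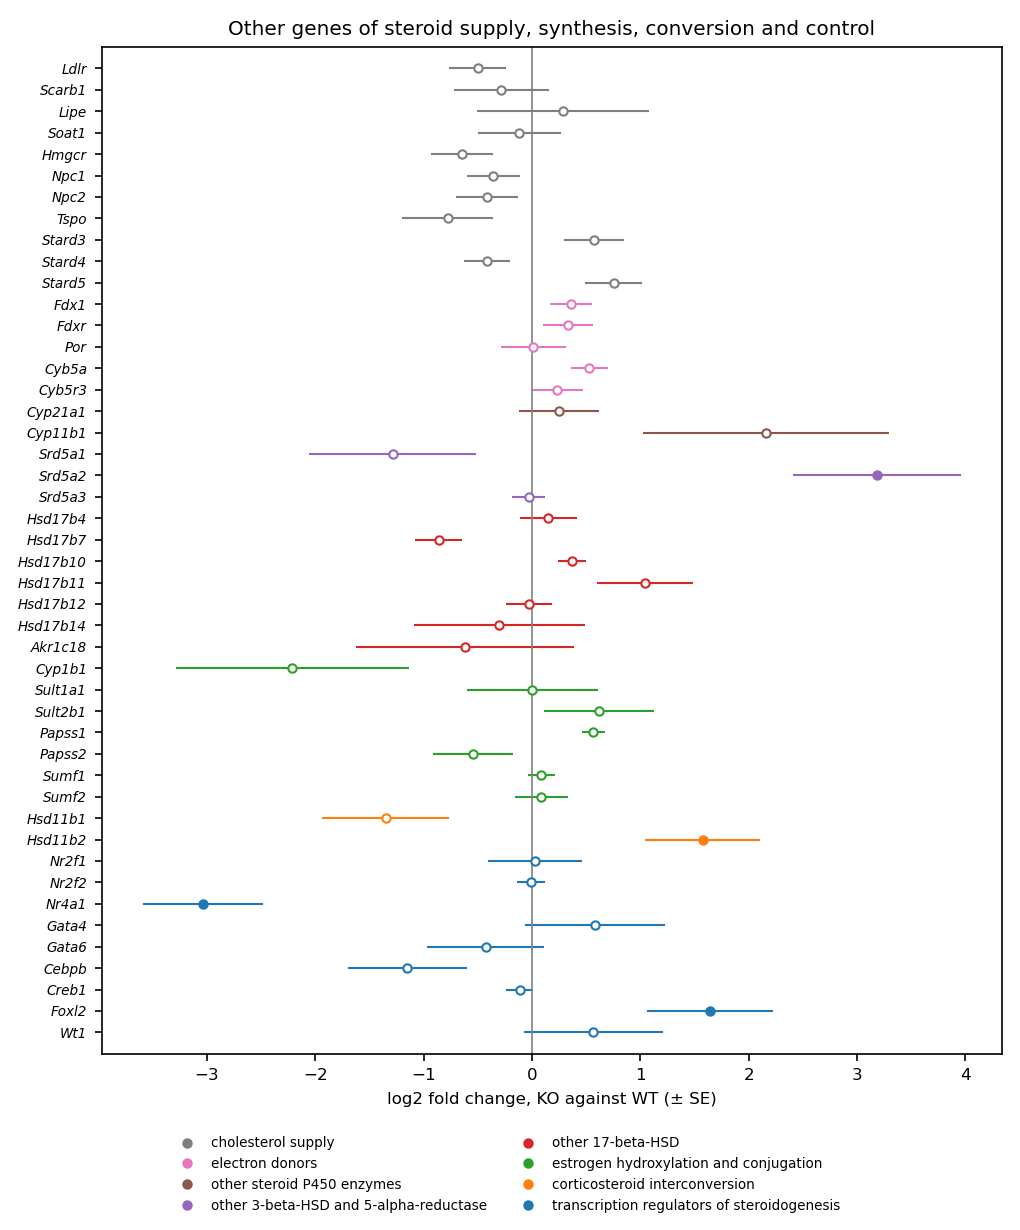
Log2 fold change of KO against WT (horizontal axis, bars are the standard error) for tested genes of steroid supply, conversion and control, colored by role, with filled points for an unadjusted p under 0.05 and a log2 fold change past 1. The filled points are Srd5a2, Foxl2 and Hsd11b2 at 1.58 to 3.19 and Nr4a1 at -3.04.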

How the data were processed

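RNA of 3 WT and 3 Dnmt3a KO lesions was prepared with a stranded mRNA kit. The authors deposited raw counts of reads per gene. Their processing notes name Trimmomatic, featureCounts, DESeq2 and GRCm39, the methods of the study name GRCm38, and the aligner and the strand setting are not given in the sources used here. Of the counts from 1 to 20 in a library, 89.2% to 90.6% were even, compared with 53.4% to 55.4% of those above 1000. Symbols, coordinates and exon lengths came from GENCODE M21 (GRCm38), which matched 51948 of 56884 identifiers. Unmatched identifiers held 3.04% to 3.56% of the counts.

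Counts were fitted with edgeR 4.0.16 (R 4.3.3): filterByExpr (18177 genes), TMM scaling, quasi-likelihood test of genotype over all 6 libraries, Benjamini-Hochberg adjustment over all tested genes, called at 0.05. Standard errors were derived from the F statistics. CPM carried no prior count, and distances used a prior count of 2. Single genes were also compared by exact two-sided permutation of the lesions. The labels number the lesions, and the methods of the study give as many donor mice as lesions, so the p-values measure the spread between these lesions. The steps were tested on simulated data.

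All members were named. Other pathway genes were named when past the threshold of the study or among the 2 highest of their role by mean CPM, and any others were named after their values were seen. A gene that this rule names is not reported here. The members and lists were chosen with earlier results of these data known. Promoter sequences are from RefSeq, and 5 members had 9 windows. Alternatives were other scaling, other filters, DESeq2 1.42.0, limma 3.58.1 voom with quality weights, a replicate block, each lesion left out and, chosen after seeing the data, counts divided by 2.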

Additional observations from a re-analysis of the deposited data

How the results depend on the processing

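Of the results on single members, 2 turned in direction: the log2 fold change of Star, -0.94, was 0.21 without WT replicate 2 (edgeR adjusted p = 0.921), and that of Nr5a2, 0.95, was -0.087 without KO replicate 2 (adjusted p = 0.965). With each lesion left out, Star ran from -1.66 to 0.21, Cyp11a1 from 0.039 to 3.82, Hsd17b2 from 0.10 to 0.64 and Nr5a2 from -0.087 to 1.38. No alternative gave a tested member an adjusted p under 0.05. Members past the threshold of the study on the higher side numbered 0, where 3.1% of all genes passed. Without the filter on low counts there was 1, where 2.61% of all genes passed. It was Hsd3b1 (log2 fold change 11.86, edgeR adjusted p = 0.429), a fitted value against 0 counts that depends on the prior count. With each lesion left out such members numbered 0 to 2. There was 1 without KO replicate 1, where 2.25% of all genes passed, and 2 without KO replicate 3, where 5.36% did. Members whose groups did not overlap numbered 0, and 0 to 2 with each lesion left out (1 without WT replicate 2 or KO replicate 1, where 33.6% and 24.6% of all genes did not overlap, and 2 without KO replicate 3, where 47.2% did not). Other pathway genes with an adjusted p under 0.05 numbered 0 in edgeR (0.0055% of all genes) and 4 with DESeq2 (6.05%). Those past the threshold of the study on the higher side numbered 3 of 47 (3.1% of all genes) and 5 of 56 without the filter (2.61%). With each lesion left out, the higher count was 1 to 5 (1.48% to 5.36%). On the lower side they numbered 1 of 47 (5.85%), 2 of 56 without the filter (5.45%), 2 with voom (8.38%) and 4 with DESeq2 (7.43%). With each lesion left out, the lower count was 1 to 5 (2.9% to 8.66%). The cause was not tested. With upper quartile scaling the median over all genes was 0.11 in place of 0.014 on the log2 scale, and no member turned. DESeq2 gave 1100 adjusted calls over all genes, voom 12 and edgeR 1, and edgeR gave 398 without WT replicate 2.

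Same-numbered WT and KO lesions did not deviate together (correlations across genes 0.0318, -0.152 and -0.201). Differently numbered pairs ran from -0.150 to 0.228. These values gave no sign of pairing, but with 3 lesions in each group they cannot settle whether the numbers pair the lesions. With the replicate block the log2 fold changes were -0.89 for Star, 1.88 for Cyp11a1, 0.26 for Hsd17b2 and 0.52 for Nr5a2, and 0 members were called. A filter of 10 counts in every library and counts divided by 2 left no fit for Cyp11a1, and DESeq2 gave it no adjusted p. Depth limits Cyp19a1, Sult1e1 and Nr5a1, which in most lesions were at or below the few counts that a library of this size can tell from 0.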

Other observations

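Outside the rule for named genes, 2 more pathway genes with at least 10 counts in a lesion had nearly all their reads in KO replicate 2 and were named after their values were seen. The glucuronidating enzyme gene Ugt1a1, which shares exons with its family so that its counts are uncertain, had 26.1 CPM in KO replicate 2 and at most 0.315 CPM in the other lesions. Nr0b1, which encodes the DAX1 repressor of steroidogenic factor 1, had 0.437 CPM in KO replicate 2 and 0 in the others. Over the 56 pathway genes with any count, 13 were highest in KO replicate 2, as were 19.7% of all genes that passed the filter on low counts.

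WT replicate 2 also carried genes of the bladder lining. The sum of 5 urothelial genes, a list chosen after the values were seen, was 280 CPM in WT replicate 2 and 3.61 to 31.9 CPM in the other lesions. Star was highest in the same lesion, as described, and no member was at least 8-fold above every other lesion there.

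Cyp1b1, which hydroxylates estradiol, had 13.9, 183 and 35.8 CPM in the WT lesions against 5.33, 15.7 and 29.1 CPM in the KO lesions, and was also named after its values were seen. Its log2 fold change was -2.21 (SE 1.08, edgeR adjusted p = 0.372), and its highest value, like that of Star, was in WT replicate 2. The groups overlapped. Hsd17b7, an enzyme of cholesterol and estradiol synthesis, had 14.5, 16.3 and 19.9 CPM in the WT lesions against 8.39, 7.97 and 11.5 CPM in the KO lesions, without overlap (log2 fold change -0.86, SE 0.22, edgeR adjusted p = 0.321).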
